A study of Mus musculus with 9 samples.

Results

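The proteasome is the protease complex that degrades proteins tagged with ubiquitin, and its subunit genes were followed here through RNA from mouse testes. The members were the protein-coding genes whose symbols begin with Psma, Psmb, Psmc, Psmd, Psme, Psmf or Psmg followed by a number. The rule took 49 of the 56691 genes in the count table. It left out 4 pseudogenes, with 0 to 34 counts each over all libraries, and Psmc3ip, which encodes a recombination factor with 416 counts. By role, the 49 genes were 7 alpha subunits and 7 beta subunits of the core, 1 germline alpha subunit, 4 inducible or thymic catalytic subunits, 6 ATPases and 11 non-ATPase subunits of the regulatory particle, 3 regulatory-particle chaperones, 4 core chaperones, and 6 activators or inhibitors. Of these, 46 had enough counts to be tested, among 17251 tested genes in all. The 3 others were Psmb8, Psmb11 and Psme2b.

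All 9 libraries came from testes on postnatal day 7 (P7), in 3 groups of 3. One group was wild type (WT), one was labelled Gm1142-/-, and one was labelled Gm1142-/- Gm4779-/-, called the double knockout below. The labels name no strain, no kind of allele and no treatment. They do not say whether replicates came from separate animals or from pools, so p-values measure only how these samples vary, and that variation may be technical. The question was how proteasome transcripts differed from WT with Gm1142 targeted alone and with both genes targeted.

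As background, the core particle (20S) is a barrel of alpha and beta rings, with the proteolytic sites on 3 of the beta subunits facing an inner chamber. The regulatory particle (19S) caps the barrel. Its base holds a ring of ATPases that unfold substrates and open the alpha ring, and its lid carries the enzyme that removes ubiquitin. Dedicated chaperones assemble both particles and leave the finished complex, and alternative caps, alternative catalytic subunits and the germline alpha subunit PSMA8 give other forms, of which PSMA8 and the activator PSME4 are known for their roles in spermatogenesis. Transcription of many subunit genes is raised together by the factor NFE2L1 when proteasome activity is short.

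Library totals ran from 4370124 to 8359594 counts. Mitochondrially encoded genes took 29.4% to 32.7% of the WT counts, 27.1% to 32.9% in the double knockout and 32.5% to 38.9% in the libraries labelled Gm1142-/-. On principal component 1 of all tested genes, the libraries labelled Gm1142-/- scored 43.7 to 67.5, WT −30.7 to −25.2 and the double knockout −34.0 to −21.6. Neither targeted gene had a count in the double knockout, against 9.80 ± 0.946 CPM (read counts scaled to library size with TMM factors; mean ± SD, n = 3 here and below) for Gm1142 in WT. In the libraries labelled Gm1142-/-, Gm1142 stood at 11.7 ± 0.988 CPM and Gm4779 at 15.1 ± 2.30 CPM, against 9.64 ± 1.69 CPM for Gm4779 in WT, so the counts do not show the single knockout and its label is kept in every statement. Markers of germ, Sertoli, Leydig, peritubular, endothelial, leukocyte and red cells were all detected, with no marker at 0 throughout. The 9 germ-cell markers summed to 389 to 458 CPM in WT, 319 to 399.7 CPM in the libraries labelled Gm1142-/- and 613 to 769 CPM in the double knockout. In bulk testis RNA, fewer cells of a type and less RNA per cell cannot be told apart.

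In WT testis the constitutive core and regulatory particle supplied most proteasome RNA, at mean sums of 717 and 1304 of 2542 CPM. The 4 inducible or thymic catalytic subunits summed to 22.3 CPM. To compare genes, CPM was divided by the length of the longest annotated protein-coding transcript, which understates a gene whose shorter isoforms dominate. On this per-kilobase scale the highest gene was Psmb3, a structural beta subunit, at 81.2 ± 8.06 CPM per kilobase. It was followed by Psmb6, which carries the caspase-like site, at 77.1 ± 8.22, and by Psma7, an alpha subunit, at 71.3 ± 3.86. The SD ranges of neighbours among these 3 overlapped.

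Among the alpha ring the lowest level was that of Psma2, at 16.8 ± 0.567 CPM per kilobase, and among the constitutive beta ring that of Psmb5, which carries the chymotrypsin-like site, at 14.1 ± 3.39. The 6 ATPase genes ran from 29.4 ± 1.27 for Psmc2 to 60.2 ± 2.26 for Psmc6. The 11 non-ATPase genes ran from 18.7 ± 2.39 for Psmd11, a lid subunit, to 53.9 ± 4.76 for Psmd6, another lid subunit. On this scale, genes of one particle thus differed by more than their SDs between WT libraries. The order depends on the transcript taken. Psma2, at 48.8 CPM before division, was divided by 2911 bases, and Psma5, at 36.6 CPM, by 1239 bases. Psme1 and Psme2, which form the heteromeric PA28 activator, stood at 65.4 ± 4.94 and 63.5 ± 1.87, level with the upper core subunits.

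The inducible catalytic subunits replace the constitutive ones in the immunoproteasome, a form that favours peptides for MHC class I. Psmb10 had 13.4 ± 1.45 CPM per kilobase in WT, next to Psmb5 in the order and within its SD. Psmb9 had 2.21 ± 0.666 CPM per kilobase. Psmb8 was below the test's filter, with 4, 7 and 8 counts in WT, 10, 10 and 9 in the libraries labelled Gm1142-/- and 8, 2 and 5 in the double knockout. The thymic subunit Psmb11 had 1 to 7 counts in every library. The germline alpha subunit Psma8 stood at 3.99 ± 1.85 CPM per kilobase in WT, far below the 71.3 ± 3.86 of its paralogue Psma7. At P7, Psma8 and Psmb9 were thus detected in every library at a low level, and Psmb8 and Psmb11 at counts too few to compare groups.

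**Figure D1:**
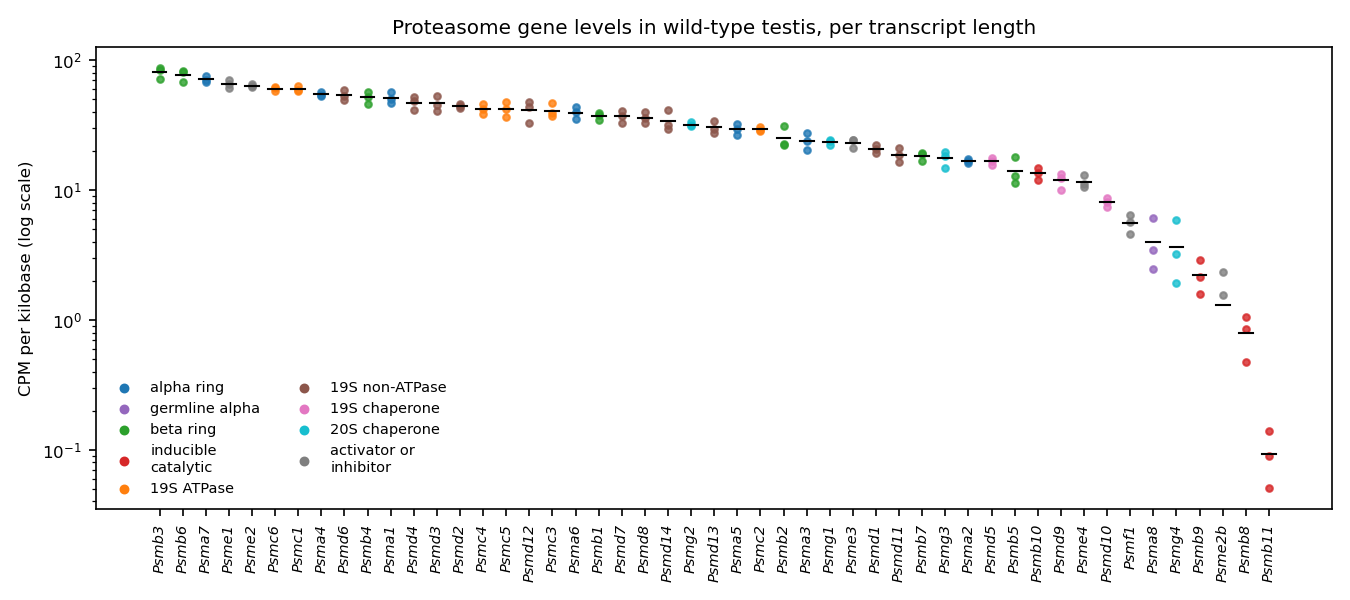
Level of each of the 49 proteasome genes in the 3 WT libraries, in CPM per kilobase of the longest protein-coding transcript on a log scale, coloured by role and ordered by mean (bar). Psmb3, Psmb6 and Psma7 lead, and Psmb9, Psme2b, Psmb8 and Psmb11 are lowest; the WT library with 0 counts of Psme2b has no point on the log axis.

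In the libraries labelled Gm1142-/-, 10 proteasome genes were higher than in WT and 1 was lower. The higher genes were Psma4, Psma7 and Psmb3 of the core, Psmc5 of the ATPase ring, Psmd3, Psmd4, Psmd6, Psmd13 and Psmd14 of the non-ATPase subunits, and the chaperone Psmd9. The lower gene was the chaperone Psmd10. By edgeR's quasi-likelihood test with Benjamini-Hochberg adjustment over all tested genes, the higher genes made up 21.7% of the 46 members, against 10.2% of all tested genes called higher. The 1 lower gene made up 2.17%, against 8.38%. Genes with a mean level of 10 to 200 CPM included 42 of the members. In this range 13.2% of genes and 23.8% of the members were higher, and 10.4% of genes and 0% of the members were lower. The 1 lower gene, Psmd10, lay just below this range, so the 0% follows from where the range was cut.

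The difference was spread over many subunits and was small in most. The log2 fold change was above 0 in 34 of 46 members, or 73.9%, against 49.3% of all tested genes, and its median was 0.22, against −0.01 over all tested genes. The 3 libraries lay above all WT libraries in 20 members, or 43.5%, against 18.7% of all tested genes, and below them in 4, or 8.70%, against 17.2%. An unadjusted p under 0.05 was found for 19 members, or 41.3%, against 30.8%. Summed over the 49 genes, proteasome RNA was 2559.7 CPM, 2555 CPM and 2512 CPM in the WT libraries. It was 3051, 3284 and 3114 CPM in the libraries labelled Gm1142-/-, a ratio of means of 1.24 ± 0.0492. Plain library totals in place of TMM scaling gave a ratio of 1.11 ± 0.0480, since they shift every log2 fold change of this comparison by −0.15. No p-value is given for a sum over members, which are not replicates.

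**Figure D2:**
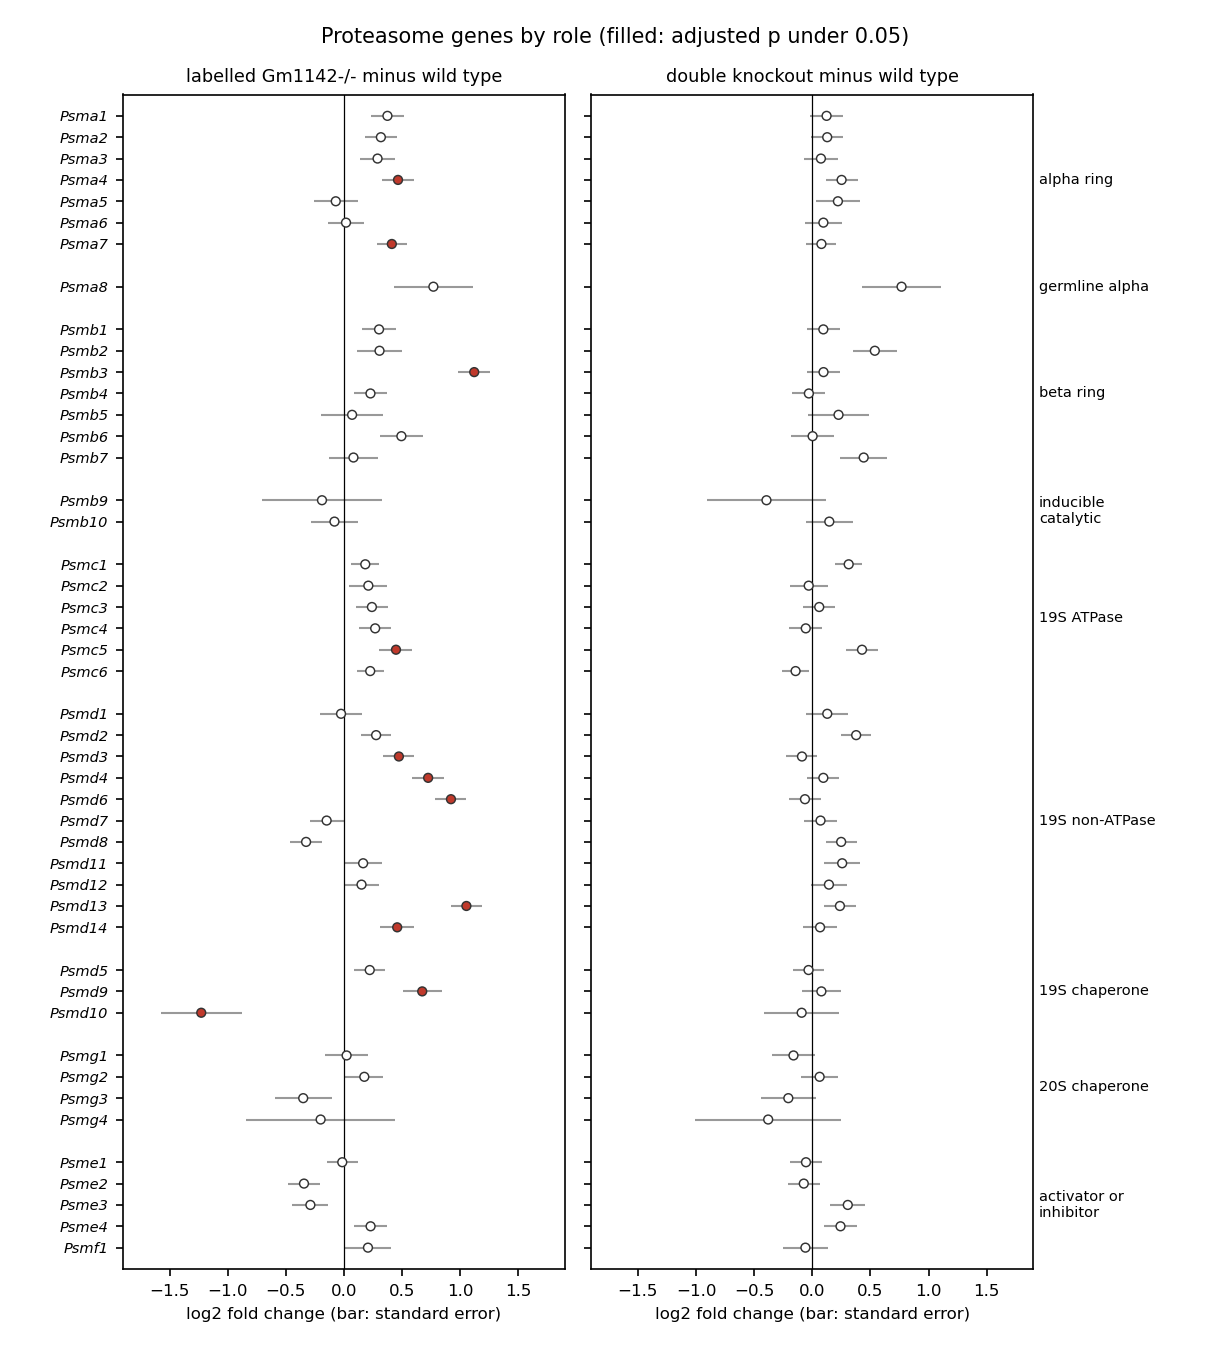
Log2 fold change of the 46 tested proteasome genes, grouped by role, in the libraries labelled Gm1142-/- (left) and the double knockout (right) against WT; bars are standard errors, and filled points passed an adjusted p of 0.05. On the left 10 filled points lie to the right of 0 and 1, Psmd10, to the left, and on the right none is filled.

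Within the core, Psmb3 had the largest difference. It measured 64.7, 55.2 and 66.8 CPM in the 3 WT libraries, then 117, 149.6 and 139 CPM in the libraries labelled Gm1142-/- and 64.1, 62.5 and 73.4 CPM in the double knockout. Every library labelled Gm1142-/- lay above every other library, and the WT and double-knockout libraries overlapped. The level was 2.17-fold that of WT (log2 fold change 1.12, SE 0.14, adjusted p = 1.09e-05). Processed copies of Psmb3 elsewhere in the genome, matching stretches of its transcript at 95% identity or more, held 0 to 18 counts in all libraries together.

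Psma4 and Psma7, which belong to the alpha ring that gates the barrel, were higher by less. Psma4 measured 66.6, 62.7 and 61.8 CPM in WT against 88.0, 92.3 and 83.7 CPM in the libraries labelled Gm1142-/- (log2 fold change 0.47, SE 0.14, adjusted p = 0.0226). Psma7 measured 87.3, 78.4 and 81.8 CPM in WT against 103, 121 and 105 CPM in the libraries labelled Gm1142-/- (log2 fold change 0.41, SE 0.13, adjusted p = 0.0305). Neither pair of groups overlapped. Both calls were lost without any 1 of the 6 libraries compared except replicate 1 of the libraries labelled Gm1142-/-, with adjusted p up to 0.0842 for Psma4 and 0.123 for Psma7.

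The other core genes did not pass the test in the main fit. Psmb6 measured 54.0, 65.6 and 65.0 CPM in WT against 69.7, 121 and 69.9 CPM in the libraries labelled Gm1142-/-, where replicate 2 stood well above the others (log2 fold change 0.49, SE 0.18, adjusted p = 0.0655). It passed with no filter (adjusted p = 0.028) and with GC and length trends removed (adjusted p = 0.0486). It also passed without replicate 1 or 3 of the libraries labelled Gm1142-/- (adjusted p = 0.0265 and 0.046). Psmb5 measured 16.1, 10.2 and 11.6 CPM and 11.5, 10.2 and 18.1 CPM, with groups that overlapped (log2 fold change 0.07, SE 0.27, adjusted p = 0.892). Psma5 and Psma6 had log2 fold changes of −0.07 and 0.02, the lowest of the alpha ring. The median log2 fold change was 0.32 over the 7 alpha genes and 0.30 over the 7 beta genes, and the summed level was 1.24 and 1.42 times that of WT.

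The non-ATPase genes of the regulatory particle held 5 of the 10 higher genes. Psmd13, a structural lid subunit, measured 54.9, 67.8 and 58.6 CPM in WT, then 112, 136 and 129 CPM in the libraries labelled Gm1142-/- and 71.9, 75.4 and 66.1 CPM in the double knockout (log2 fold change 1.05, SE 0.14, adjusted p = 1.71e-05). Psmd6, also in the lid, measured 73.5, 68.8 and 81.8 CPM, 136, 160.1 and 128 CPM and 77.7, 67.5 and 69.5 CPM in the same order (log2 fold change 0.92, SE 0.13, adjusted p = 6.36e-05). For both genes the 3 libraries labelled Gm1142-/- lay above the other 6, at 2.08 and 1.89 times the WT level. Psmd13 shares 342 exonic bases, 10.1% of its own, with Sirt3 on the opposite strand, and the sources used here do not give the strand setting of the counting.

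Psmd4 encodes a ubiquitin receptor of the regulatory particle. It measured 85.4, 91.1 and 72.4 CPM in WT, then 124, 157 and 131 CPM in the libraries labelled Gm1142-/- and 84.96, 84.8 and 96.5 CPM in the double knockout (log2 fold change 0.72, SE 0.14, adjusted p = 0.000808). Its groups separated in the same way as those of Psmb3, Psmd6 and Psmd13. These 4 genes passed without any single library and under each of the other alternatives run, with adjusted p of at most 0.0104 without 1 library.

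Psmd3, a lid subunit, measured 97.4, 87.1 and 115 CPM in WT against 124, 149 and 142 CPM in the libraries labelled Gm1142-/- (log2 fold change 0.47, SE 0.13, adjusted p = 0.0162). Psmd14, the deubiquitinating enzyme of the lid, measured 45.6, 63.5 and 48.5 CPM and 68.2, 74.7 and 73.7 CPM (log2 fold change 0.46, SE 0.15, adjusted p = 0.0334). The groups did not overlap in either gene, but the lowest of the libraries labelled Gm1142-/- lay close to the highest WT library. The Psmd3 call was lost without WT replicate 1 or 2, and the Psmd14 call without WT replicate 1 or 3. Both were lost without replicate 2 or 3 of the libraries labelled Gm1142-/-, with adjusted p up to 0.109 for Psmd3 and 0.179 for Psmd14.

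Not every lid gene was higher. Psmd8 measured 71.2, 64.8 and 79.2 CPM in WT against 51.9, 59.3 and 60.7 CPM in the libraries labelled Gm1142-/-, below every WT library but without passing the adjusted threshold (log2 fold change −0.33, SE 0.14, adjusted p = 0.105). Psmd7, the partner of Psmd14, had a log2 fold change of −0.15 (SE 0.15), and Psmd1, a scaffold of the base, one of −0.02 (SE 0.18). Summed over the 8 lid subunits with a Psm symbol, the level was 1.34 times that of WT. The lid transcripts thus ran from Psmd8, below WT in all 3 libraries, to Psmd13, above WT in all 3.

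The ATPase genes all had log2 fold changes above 0, and 1 passed the test. The same gene was the only 1 of 6 with an unadjusted p under 0.05 (16.7%, against 30.8% of all tested genes). Psmc3 and Psmc4 overlapped WT, and plain library totals shift each log2 fold change by −0.15. Psmc5 measured 63.2, 47.9 and 55.1 CPM in WT against 74.2, 69.5 and 82.9 CPM in the libraries labelled Gm1142-/- (log2 fold change 0.45, SE 0.14, adjusted p = 0.0318), with the lowest library of the second group above the highest WT library. The call was lost without WT replicate 2 (adjusted p = 0.172) and also without WT replicate 3 or without replicate 1 or 3 of the libraries labelled Gm1142-/-. The 6 log2 fold changes ran from 0.18 for Psmc1 to 0.45 for Psmc5, with a median of 0.23 and a summed level 1.19 times that of WT.

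The chaperones that assemble the regulatory particle moved in opposite directions. Psmd9, which guides one of the ATPase pairs, measured 32.2, 25.8 and 34.7 CPM in WT against 47.8, 51.6 and 48.4 CPM in the libraries labelled Gm1142-/- (log2 fold change 0.67, SE 0.17, adjusted p = 0.00796). Psmd10, known as gankyrin and also an oncoprotein, measured 11.7, 10.6 and 12.5 CPM and 6.80, 3.58 and 4.26 CPM (log2 fold change −1.23, SE 0.35, adjusted p = 0.0177). All 3 libraries labelled Gm1142-/- lay above WT for Psmd9 and below WT for Psmd10. The third such chaperone, Psmd5, measured 69.1, 73.5 and 77.3 CPM and 79.4, 95.1 and 82.2 CPM and did not pass the test (log2 fold change 0.22, SE 0.13, adjusted p = 0.269). The Psmd9 call was lost without WT replicate 2 (adjusted p = 0.0589), and the Psmd10 call without replicate 1 or 3 of WT or replicate 2 or 3 of the libraries labelled Gm1142-/- (adjusted p up to 0.0684). A non-coding gene on the opposite strand overlaps 25.5% of the exonic bases of Psmd9.

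No core chaperone, activator or inhibitor passed the test. The core chaperones Psmg1, Psmg2, Psmg3 and Psmg4 pair up to start the alpha ring and had a median log2 fold change of −0.09. Psmg1 measured 24.4 ± 1.23 CPM in WT against 24.9 ± 2.02 CPM in the libraries labelled Gm1142-/-. Psmg2 measured 41.5 ± 1.62 and 46.9 ± 3.93 CPM. Psmg3 measured 15.5 ± 2.24 and 12.2 ± 0.116 CPM (log2 fold change −0.35, SE 0.24, adjusted p = 0.355), with groups that did not overlap. Psmg4, the least abundant, measured 2.04 ± 1.11 and 1.81 ± 0.893 CPM.

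Psme1 and Psme2 encode the subunits of one ring. Psme1 measured 72.4, 67.4 and 78.4 CPM in WT against 63.3, 79.0 and 73.9 CPM in the libraries labelled Gm1142-/- (log2 fold change −0.01, SE 0.13, adjusted p = 0.958). Psme2 measured 63.0, 60.7 and 59.4 CPM and 53.4, 46.0 and 44.7 CPM, without overlap (log2 fold change −0.34, SE 0.14, adjusted p = 0.0915). The counts of Psme2 cannot be fully told apart from those of Psme2b, which is 99.4% identical over 794 bases and held 54 counts in all libraries against 2653. Psme3, the nuclear activator, had a log2 fold change of −0.29 and Psme4, the activator tied to histone removal in spermatids, one of 0.23 (adjusted p = 0.218 and 0.289). The inhibitor Psmf1 measured 21.2 ± 3.39 CPM in WT against 24.4 ± 1.86 CPM.

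Among the inducible and germline subunits none passed the test. Psmb10 measured 17.6, 19.5 and 15.7 CPM in WT against 17.9, 15.9 and 16.2 CPM in the libraries labelled Gm1142-/- (log2 fold change −0.08, SE 0.21, adjusted p = 0.834). Psmb9 measured 2.87, 3.94 and 2.15 CPM and 2.91, 3.07 and 1.92 CPM (log2 fold change −0.19, SE 0.51, adjusted p = 0.848). Both pairs of groups overlapped. Psma8 measured 4.21, 10.2 and 5.81 CPM and 9.32, 16.9 and 8.73 CPM, a difference in level that the spread between replicates did not separate (log2 fold change 0.77, SE 0.34, adjusted p = 0.13). Without WT replicate 2, the WT library with the highest Psma8, it passed, with a log2 fold change of 1.20 and an adjusted p of 0.0395.

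**Figure D3:**
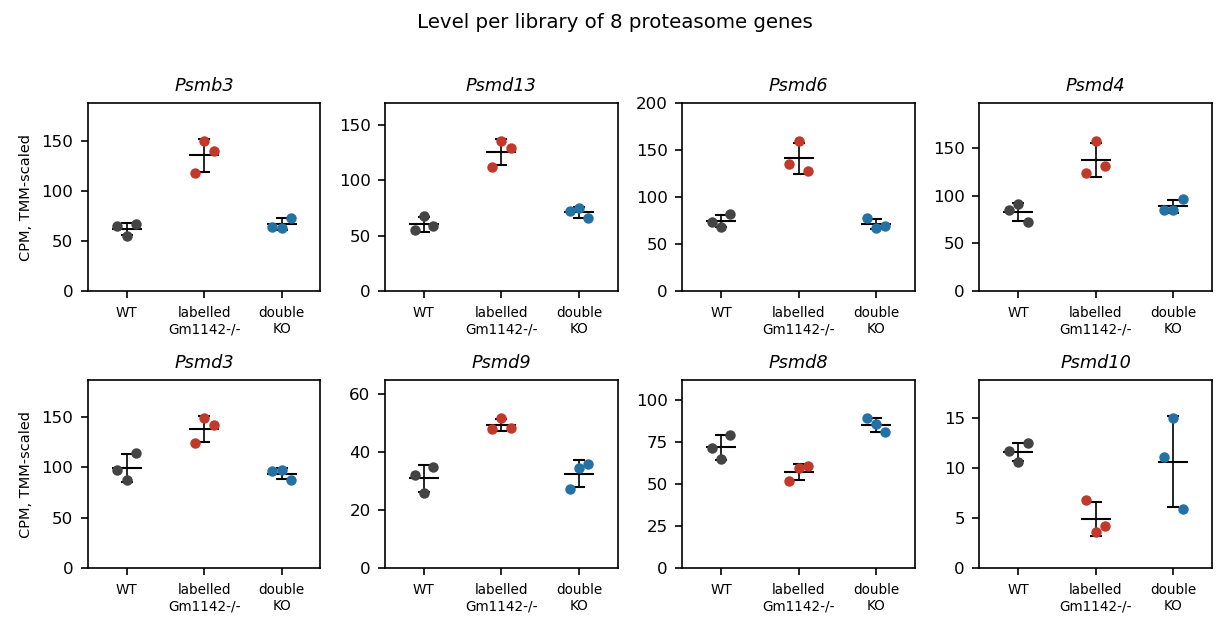
CPM of 8 proteasome genes in each library of the 3 groups; the long bar is the mean and the short bars are 1 SD (n = 3). In the first 6 panels the libraries labelled Gm1142-/- lie above all others, and in those of Psmd8 and Psmd10 they lie below WT.

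Several measures of the libraries moved with the group. The libraries labelled Gm1142-/- had the lowest TMM factors, and 2 of them had a mitochondrial share above all other libraries. Replicate 2 stood out in both measures and was also the highest of its group in Psmb3, Psmd13, Psmd6, Psmd4 and Psmd3. With replicate 2 of that group left out, 6 members were higher and none was lower, and with replicate 2 of both knockout groups left out 8 were higher and 1 lower. With mitochondrial genes left out before scaling, 10 members were higher and 1 lower, and the summed ratio to WT was 1.20. Leydig-cell markers summed to 279 to 502 CPM in WT and 174 to 267 CPM in the libraries labelled Gm1142-/-, and 2 of 5 tested were lower, whereas Sertoli-cell markers summed to 1068 to 1128 CPM and 1083 to 1184 CPM, with 1 higher and 2 lower of 8. Of the 9 germ-cell markers, 2 were higher and 1 was lower. Red-cell markers summed to 47.7 to 51.7 CPM and 60.9 to 93.6 CPM. The part of cell composition in the proteasome differences was not tested.

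Leaving out 1 library at a time left 6 to 11 members called, of which 6 to 10 were higher. The count was 6 without WT replicate 1 or 3 or replicate 2 or 3 of the libraries labelled Gm1142-/-, and 7 without WT replicate 2. Over the same fits 6.20% to 9.40% of all tested genes were higher, against 13.0% to 21.7% of the members. At least 1.5-fold differences held for 5 of the higher members and for Psmd10.

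In the double knockout no proteasome gene passed the test against WT. Calls were few in this comparison in general, 0.0927% of all tested genes, with 0.0464% in each direction. The smallest adjusted p of a member was 0.367 by edgeR, and 6 of 46 (13.0%) had an unadjusted p under 0.05, against 8.95% of all tested genes. DESeq2 and limma-voom also called 0 members, with 5 and 7 at an unadjusted p under 0.05. The log2 fold change was above 0 in 31 members (67.4%), against 52.3% of all tested genes, and its median was 0.09, against 0.02. The summed level was 2691, 2895 and 2665 CPM, or 1.08 ± 0.0507 times that of WT.

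The 6 members with an unadjusted p under 0.05 were Psmc5, Psmd2, Psmb2, Psmc1, Psma8 and Psmb7. Psmc5 measured 78.8, 69.3 and 75.9 CPM, above all WT libraries and level with the libraries labelled Gm1142-/- (log2 fold change 0.43, SE 0.14, adjusted p = 0.367). Psmd2, the scaffold of the base that receives substrate shuttles, measured 131 ± 4.69 CPM in WT against 170.0 ± 28.4 CPM (log2 fold change 0.38, SE 0.13, adjusted p = 0.38). Psmb2 and Psmb7, the second of which carries the trypsin-like site, had log2 fold changes of 0.54 and 0.44 with SEs of 0.19 and 0.20. The double-knockout libraries lay above all WT libraries in 6 members (13.0%), against 8.28% of all tested genes, and below them in 2 (4.35%), against 7.57%. Of the 3 genes most raised in the libraries labelled Gm1142-/-, the log2 fold change in the double knockout was 0.10 (SE 0.14) for Psmb3, 0.24 (SE 0.14) for Psmd13 and −0.06 (SE 0.13) for Psmd6.

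Subunits tied to germ cells or immunity did not pass either. Psma8 measured 11.3, 13.1 and 9.97 CPM in the double knockout, with the lowest library just under the highest WT library (log2 fold change 0.77, SE 0.34, adjusted p = 0.516). Beside this, 2 of 9 germ-cell markers were higher and none lower, with Sycp1 at 36.8 ± 6.76 CPM in WT against 78.7 ± 14.3 CPM in the double knockout. Their part in the Psma8 level was not tested. Psme4 measured 84.4, 68.4 and 71.9 CPM in WT against 86.9, 100.6 and 77.7 CPM (log2 fold change 0.24, SE 0.14, adjusted p = 0.629). Psmb10 measured 20.7, 19.3 and 18.6 CPM (log2 fold change 0.15, SE 0.20, adjusted p = 0.881), and Psmb9 1.72, 2.03 and 3.17 CPM.

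Between the knockout groups, 7 members were lower in the double knockout and 3 were higher. The lower genes were Psmb3, Psmc6, Psmd3, Psmd4, Psmd6, Psmd9 and Psmd13, or 15.2% of the members, against 10.1% of all tested genes. The higher genes were Psmd8, Psmd10 and Psme3, or 6.52%, against 9.07%. The double-knockout libraries lay below the others in 16 members (34.8%), against 17.1% of all tested genes, and above them in 6 (13.0%), against 16.3%. The log2 fold change was above 0 in 17 members (37.0%), against 52.6%, and its median was −0.18, against 0.03. Plain library totals in place of TMM scaling shift every log2 fold change of this comparison by 0.18, as large as the members' median. On plain totals the summed level was 1.11 times that of WT in the libraries labelled Gm1142-/- and 1.10 times in the double knockout. This comparison shares its libraries with the other 2, so it adds no separate sample.

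The smallest adjusted p belonged to Psmb3 (log2 fold change −1.02, SE 0.14, adjusted p = 3.29e-05), Psmd6 (log2 fold change −0.98, SE 0.13, adjusted p = 3.55e-05) and Psmd13 (log2 fold change −0.82, SE 0.13, adjusted p = 0.000245). Psmd4 (log2 fold change −0.63, SE 0.14, adjusted p = 0.00266) and Psmd3 (log2 fold change −0.56, SE 0.13, adjusted p = 0.00532) were also lower. Psmd9 had 27.2, 34.5 and 36.0 CPM in the double knockout (log2 fold change −0.59, SE 0.17, adjusted p = 0.0164). Psmc6, an ATPase, measured 138, 137 and 129 CPM in WT, then 148, 165 and 159 CPM in the libraries labelled Gm1142-/- and 118, 123 and 125 CPM in the double knockout (log2 fold change −0.37, SE 0.12, adjusted p = 0.0286), where it lay below all other libraries. Psma4 and Psma7, higher than WT in the first comparison, did not pass here (adjusted p = 0.3 and 0.0762), and Psmc5 had a log2 fold change of −0.02.

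Psmd8 measured 89.2, 85.7 and 80.6 CPM in the double knockout, above all libraries of both other groups, and differed from the libraries labelled Gm1142-/- (log2 fold change 0.57, SE 0.13, adjusted p = 0.00513). Psme3 measured 56.3, 64.3 and 65.3 CPM in WT, then 56.5, 39.6 and 55.4 CPM in the libraries labelled Gm1142-/- and 78.5, 82.8 and 67.7 CPM in the double knockout (log2 fold change 0.59, SE 0.15, adjusted p = 0.00978). The double knockout was thus the highest group for both genes, without overlap. Psmd10 measured 11.1, 15.004 and 5.89 CPM and passed although its groups overlapped (log2 fold change 1.14, SE 0.35, adjusted p = 0.0256). Its adjusted p rose to 0.189 without double-knockout replicate 2, that of Psme3 to 0.0538 with replicate 2 of the libraries labelled Gm1142-/- left out, and that of Psmd9 to 0.0721 without double-knockout replicate 1. Of the 10 calls, Psmb3, Psmd13, Psmd3, Psmd4, Psmd6 and Psmd8 held in every fit without 1 library, and Psmc6 did not (adjusted p up to 0.0871).

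**Figure D4:**
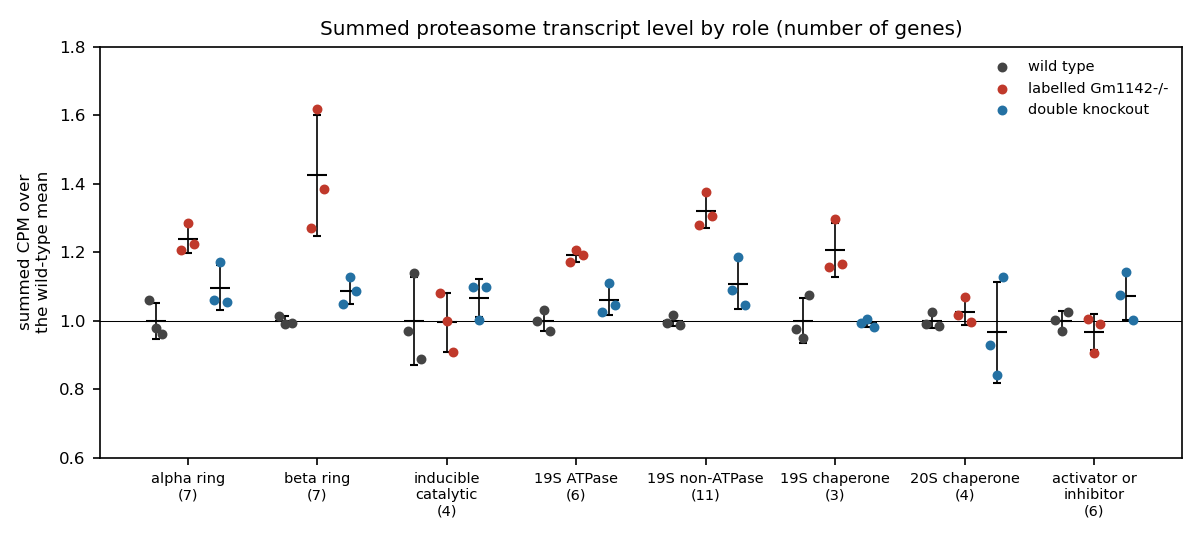
Summed CPM of the proteasome genes of each role (number of genes in brackets) in each library, divided by the WT mean; the long bar is the mean and the short bars are 1 SD (n = 3). The libraries labelled Gm1142-/- lie above WT for both core rings, the ATPases, the non-ATPase subunits and the 19S chaperones, and among WT values for the inducible catalytic subunits. With plain library totals in place of TMM scaling, the groups overlapped for the alpha ring, the ATPases and the 19S chaperones. They stayed apart for the beta ring and the non-ATPase subunits.

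Promoter sequences are shown for 3 of the genes with the firmest higher call and for the 1 lower gene, since subunit genes are known to share promoter elements. Psmd13, the other gene of firm call, is not shown because its window lies in annotated exons. RefSeq promoters (GRCm38.p6) were matched for 41 of the 49 genes, with 44 promoters of 300 bases around the start. Each sequence below is the 250 bases before the start, 5′ to 3′ on the gene's strand. Capitals mark CCAAT, the box read by NF-Y, and the core of the interferon-stimulated response element, GAAA and GAAA with any 2 bases between them, on either strand (so also ATTGG, and TTTC in place of GAAA). The promoter of Psmb3 lies on the plus strand of chr11:97703184-97703433, that of Psmd4 on the minus strand of chr3:95042615-95042864, that of Psmd6 on the minus strand of chr14:14120946-14121195 and that of Psmd10 on the minus strand of chrX:140956712-140956961.
Psmb3: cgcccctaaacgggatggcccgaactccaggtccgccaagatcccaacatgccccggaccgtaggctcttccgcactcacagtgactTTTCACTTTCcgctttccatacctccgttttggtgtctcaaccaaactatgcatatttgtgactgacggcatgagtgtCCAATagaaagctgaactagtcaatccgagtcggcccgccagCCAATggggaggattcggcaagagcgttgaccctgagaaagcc
Psmd4: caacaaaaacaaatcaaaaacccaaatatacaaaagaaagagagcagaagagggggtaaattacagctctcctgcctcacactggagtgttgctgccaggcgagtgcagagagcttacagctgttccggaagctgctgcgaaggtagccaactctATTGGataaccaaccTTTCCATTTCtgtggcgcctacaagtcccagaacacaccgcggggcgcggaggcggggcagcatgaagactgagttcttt
Psmd6: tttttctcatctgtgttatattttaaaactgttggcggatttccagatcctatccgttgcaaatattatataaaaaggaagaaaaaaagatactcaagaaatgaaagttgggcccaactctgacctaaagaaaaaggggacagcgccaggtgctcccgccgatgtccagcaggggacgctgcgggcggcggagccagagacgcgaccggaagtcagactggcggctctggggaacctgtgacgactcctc
Psmd10: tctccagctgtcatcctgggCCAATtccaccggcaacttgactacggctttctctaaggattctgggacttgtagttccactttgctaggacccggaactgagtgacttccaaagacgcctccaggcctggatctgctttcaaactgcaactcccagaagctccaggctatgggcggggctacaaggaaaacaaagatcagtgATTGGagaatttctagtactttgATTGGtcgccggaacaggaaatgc

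Psmb3 had 2 CCAAT boxes, which ended 81 and 39 bases before the start, and 1 interferon-response core. Psmd4 had 1 of each, ending 91 and 71 bases before the start. Psmd10 had 3 CCAAT boxes, and Psmd6 had none of the motifs searched. CCAAT was thus found both in higher genes and in the lower one. The third motif, TGACNNNGC, is the core of the antioxidant response element read by NFE2L1 and NFE2L2, and none of the 4 promoters held it.

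Over the 44 promoters, TGACNNNGC was found in 6 (13.6%), against 12.4% of the 32851 promoters in the table, and CCAAT in 14 (31.8%), against 37.4%. The interferon-response core was found in 5 (11.4%), against 3.44%. Of the 9 promoters of genes called higher in the libraries labelled Gm1142-/-, 1 held TGACNNNGC, 4 held CCAAT and 3 held the interferon-response core (Psmb3, Psmd4 and Psmd9). Of the 35 others, 5, 10 and 2 did. The share with TGACNNNGC was thus close to that of all promoters, and 3 of the 5 interferon-response cores lay in genes called higher. The promoters of the inducible catalytic subunits Psmb8, Psmb9 and Psmb10 held no interferon-response core, nor did those of Psme2. That of Psme1 held 1. These matches of letters are a description and were not tested.

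Among 12 tested proteasome partners outside the Psm symbols, 5 were higher and 1 was lower in the libraries labelled Gm1142-/- than in WT. For this and the lists that follow, 10.2% of all tested genes were higher and 8.38% lower, with a median of −0.01. Zfand5, which binds the proteasome and raises its activity, measured 191 ± 4.22 CPM in WT against 383 ± 54.9 CPM (log2 fold change 1.004, SE 0.13, adjusted p = 1.41e-05). Sem1, the smallest lid subunit, measured 16.8, 16.95 and 16.8 CPM in WT, then 25.4, 43.0 and 30.3 CPM in the libraries labelled Gm1142-/- and 16.6, 13.9 and 16.8 CPM in the double knockout (log2 fold change 0.96, SE 0.21, adjusted p = 0.00339). Usp14, a deubiquitinating enzyme of the regulatory particle, measured 91.0 ± 8.84 CPM and 155 ± 23.3 CPM (log2 fold change 0.76, SE 0.14, adjusted p = 0.000546). Zfand2a, an arsenite-inducible proteasome partner, was higher too, at 14.1 ± 3.23 CPM and 28.3 ± 6.12 CPM (adjusted p = 0.00719). In the double knockout the smallest adjusted p of the 12 partners against WT was 0.549.

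Adrm1, the other main ubiquitin receptor, measured 141, 121 and 135 CPM in WT against 148, 222 and 155 CPM in the libraries labelled Gm1142-/- and did not pass by edgeR (log2 fold change 0.41, SE 0.14, adjusted p = 0.0515). It passed by DESeq2 (adjusted p = 0.0409) and under 5 of the other alternatives. Pomp, the maturation factor of the core, measured 33.2 ± 12.3 CPM in WT, 34.2 ± 1.54 CPM in the libraries labelled Gm1142-/- and 39.6 ± 4.49 CPM in the double knockout. The lower partner was Ube3a, a ubiquitin ligase (log2 fold change −0.40, adjusted p = 0.0326). Between the knockout groups, 5 partners were lower in the double knockout and 1, Ube3a, was higher, against 10.1% and 9.07% of all tested genes. The median log2 fold change of the 12 partners was 0.31 in the libraries labelled Gm1142-/- and 0.14 in the double knockout against WT.

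Of 8 tested genes for proteasome transcription factors and their processing, 2 were higher and 4 lower in the libraries labelled Gm1142-/-. Nfe2l1, the factor that raises subunit genes, measured 109, 95.4 and 78.2 CPM in WT. It measured 78.7, 42.7 and 74.6 CPM in the libraries labelled Gm1142-/- and 95.9, 130.3 and 81.3 CPM in the double knockout. WT and the libraries labelled Gm1142-/- overlapped (log2 fold change −0.52, SE 0.20, adjusted p = 0.0762 in the main fit). Nfe2l1 passed as lower than WT with no filter (adjusted p = 0.0078) and with the compared groups alone (adjusted p = 0.0475). It also passed without replicate 1 of the libraries labelled Gm1142-/- (adjusted p = 0.0385). It was higher in the double knockout than in the libraries labelled Gm1142-/- (log2 fold change 0.65, SE 0.20, adjusted p = 0.0265), a call lost without replicate 2 of the libraries labelled Gm1142-/- (log2 fold change 0.42, adjusted p = 0.121), without replicate 2 of the double knockout (adjusted p = 0.184) and without both (0.21, adjusted p = 0.44). Its relative Nfe2l2 was lower at 28.8 ± 3.61 CPM against 43.3 ± 2.77 CPM (log2 fold change −0.58, SE 0.18, adjusted p = 0.0276). Ddi2, the protease that activates NFE2L1, measured 629 ± 18.9 CPM in WT against 360.5 ± 48.4 CPM (log2 fold change −0.80, SE 0.12, adjusted p = 6.21e-05). Ngly1, the glycanase that also acts on NFE2L1, was higher, at 44.3 ± 1.08 and 80.0 ± 4.93 CPM (log2 fold change 0.85, SE 0.15, adjusted p = 0.000435). The processing genes thus differed from WT in opposite directions.

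The NF-Y subunits also split. Nfya measured 81.5, 82.8 and 85.3 CPM in WT, then 38.3, 36.1 and 35.4 CPM in the libraries labelled Gm1142-/- and 74.2, 91.9 and 68.2 CPM in the double knockout (log2 fold change −1.18, SE 0.14, adjusted p = 9.85e-06). Nfyb was higher (log2 fold change 0.75, SE 0.17, adjusted p = 0.00306) and Nfyc was lower (log2 fold change −0.51, SE 0.18, adjusted p = 0.0484), though the Nfyc call was lost without any 1 of the 6 libraries, with adjusted p up to 0.188. The list as a whole had a median log2 fold change of −0.52 in the libraries labelled Gm1142-/- against WT and of 0.51 when the double knockout was compared with those libraries, where 5 genes were higher and Ngly1 was lower. These are RNA levels, and NFE2L1 is controlled mainly after translation.

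**Figure D5:**
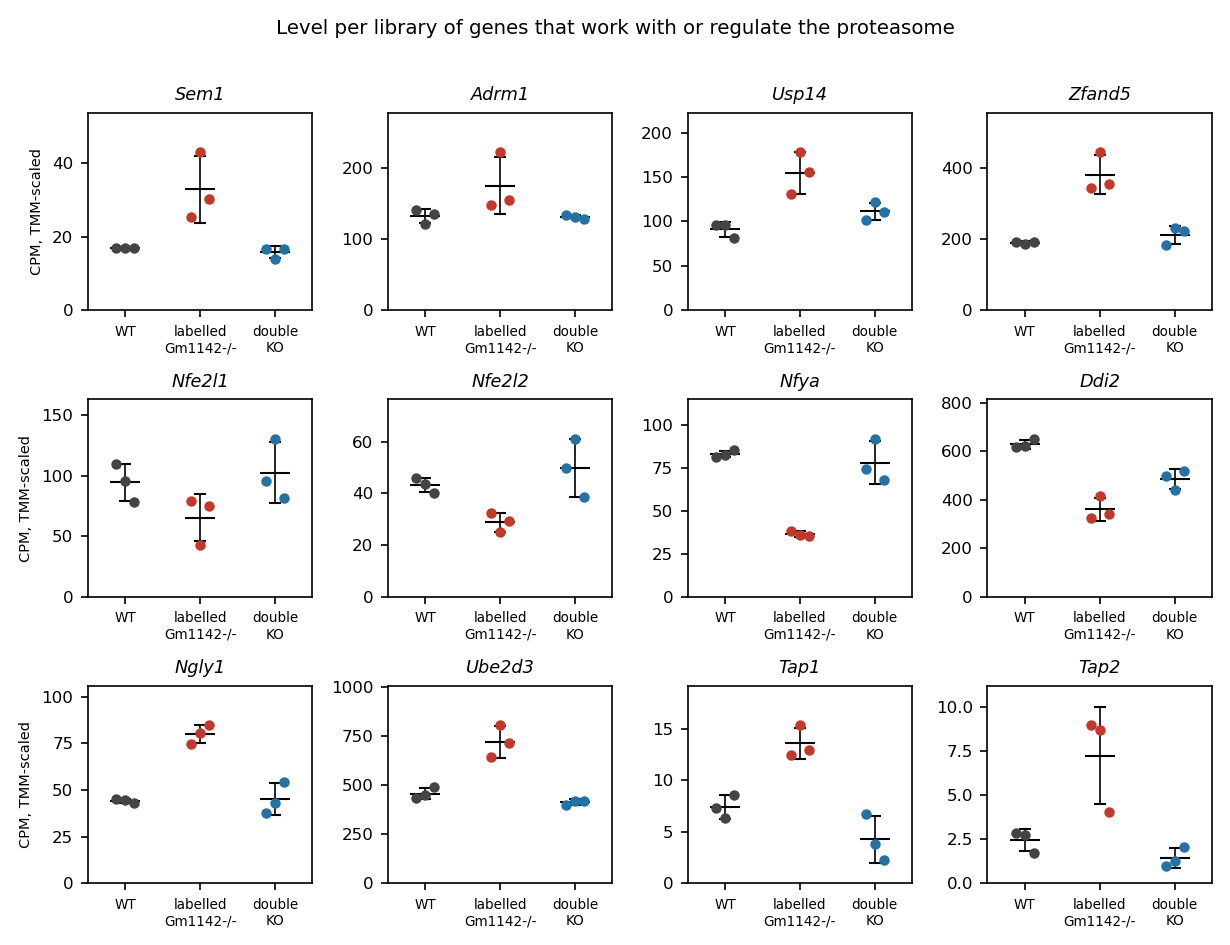
CPM of 12 genes that work with or regulate the proteasome in each library; the long bar is the mean and the short bars are 1 SD (n = 3). Sem1, Usp14, Zfand5 and Ngly1 are highest in the libraries labelled Gm1142-/-, and Nfya and Ddi2 are lowest there.

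Genes that act upstream of the proteasome were read in the same way. Of 13 genes that supply or activate ubiquitin, 4 were higher and 1 lower in the libraries labelled Gm1142-/-, among them the conjugating enzymes Ube2d3 (log2 fold change 0.66, SE 0.11, adjusted p = 0.000286) and Ube2d2a (log2 fold change 0.66, SE 0.13, adjusted p = 0.0016). The lower gene, Ube2d1, encodes a close relative of those 2 enzymes (log2 fold change −0.64, SE 0.20, adjusted p = 0.0287). Of 14 genes for substrate delivery and unfolding, 3 were higher and none lower, led by Faf2 (log2 fold change 0.72, SE 0.14, adjusted p = 0.00126) and Ufd1 (log2 fold change 0.50, SE 0.12, adjusted p = 0.00628), both cofactors of the unfoldase VCP. Neither list held a called gene in the double knockout against WT. Over the 5 lists of related genes, 11 of 21 calls held without any single library, and those of Zfand2a, Ube3a, Nfe2l2 and Ube2d1 were among the calls that did not.

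Genes of antigen presentation are induced by interferon along with Psmb8 and Psmb9, and 10 of them were tested one by one. Tap1, a peptide transporter gene next to Psmb9, measured 7.40 ± 1.16 CPM in WT, 13.6 ± 1.54 CPM in the libraries labelled Gm1142-/- and 4.27 ± 2.25 CPM in the double knockout. It did not pass against WT in the libraries labelled Gm1142-/- in the main fit (log2 fold change 0.87, SE 0.33, adjusted p = 0.0696). It passed there with the compared groups alone (adjusted p = 0.0315) and with GC and length trends removed (adjusted p = 0.0464). It was lower in the double knockout than in the libraries labelled Gm1142-/- (log2 fold change −1.66, SE 0.34, adjusted p = 0.00185). Tap2, its partner, passed in both (log2 fold change 1.54, SE 0.48, adjusted p = 0.0273 against WT, and log2 fold change −2.37, SE 0.50, adjusted p = 0.00232 between the knockout groups). It was the only 1 of 10 tested genes of this list called against WT in the main fit. Its call was lost without any 1 of the 6 libraries except replicate 3 of the libraries labelled Gm1142-/- (adjusted p up to 0.11). Psmb9, which shares 5.80% of its exonic bases with Tap1 on the opposite strand, had a log2 fold change of −0.21 between the knockout groups (SE 0.52, adjusted p = 0.823).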

How the data were processed

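The authors deposited raw read counts per gene for each library. Per the submitters' processing notes, the tools were STAR, Bowtie2, cutadapt and featureCounts and the genome build was mm39. Strand setting, annotation release and treatment of multi-mapping reads are not given in the sources used here. Symbols, transcript lengths and exon overlaps came from GENCODE vM21 (GRCm38), matched by identifier for 52073 of 56691 genes, and promoters from RefSeq (GRCm38.p6), so their coordinates describe that reference and not the alignment. A gene listed by newer annotation as Psme3ip1 carries another symbol here and was not counted.

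The analysis used edgeR 4.0.16 (R 4.3.3). Its group-wise filter (count of at least 10, total of at least 15) kept 17251 genes, and TMM gave scaling factors of 0.856 to 1.07. All 9 libraries entered 1 quasi-likelihood fit by group (6 residual degrees of freedom), from which the 3 comparisons were drawn. Benjamini-Hochberg adjustment ran over the 17251 genes, with a threshold of 0.05. The SE is the log2 fold change divided by the square root of F. Floors of 3 counts cover counting error only. The test was checked on simulated data. Alternatives were DESeq2 1.42.0, limma-voom (limma 3.58.1), other size factors, filters, samples and a replicate block, and, chosen after seeing the data, removal of GC and length trends. Near copies were searched with blastn 2.17.0 (at least 95% identity over 200 bases) and found for 11 members, among them Psma3 and Psmd11, whose counts are uncertain where reads fit a copy.

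The members, roles and gene lists were chosen with earlier results of these data known. Named genes are members called with the smallest adjusted p (up to 12 per comparison), preset members whatever their result, up to 4 called genes per pathway list, and the 5 genes most like the members. Other members were named for their role or place in a range after their values were seen. One gene on these lists is not reported here.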

Additional observations from a re-analysis of the deposited data

How the results depend on the processing

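In the libraries labelled Gm1142-/-, 11 of 46 proteasome genes were called against WT; leaving out 1 library at a time gave 6 to 11 calls, and a 1.5-fold minimum gave 6. The count was 6 without WT replicate 1 or 3, or without replicate 2 or 3 of the libraries labelled Gm1142-/-, and 7 without WT replicate 2. Other settings (DESeq2's size factors, no filter, a stricter filter, DESeq2, limma-voom, compared groups alone, mitochondrial genes left out, replicate 2 of both knockout groups left out, GC and length trends removed) gave 9 to 11 calls. Over these other settings 4.71% to 11.4% of all tested genes were higher, against 16.3% to 22.2% of the members. The share lower was 4.35% to 9.52%, with 1 member lower in each. In the double knockout against WT the count was 0 under each setting run. Between the knockout groups it was 10, with 7 to 11 over all settings. The summed ratio to WT fell from 1.24 to 1.11 with plain library totals for the libraries labelled Gm1142-/-, and was 1.08 and 1.10 for the double knockout. Same-numbered replicates had correlations of deviations from 0.0368 to 0.0834 between WT and the libraries labelled Gm1142-/-, where each library correlated best with its own number, and from −0.267 to 0.101 in the other 2 comparisons. The labels name no pairing, so the numbers were not taken as pairs in the main fit. With the replicate number as a block the counts were 11, 0 and 10. No call of a single gene reversed direction under an alternative. Depth limits the low genes: a floor of 3 counts is 0.338 to 0.767 CPM per library, and Psmb11 had at most 3 counts in each WT library.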

Other observations

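The 5 genes outside the proteasome that followed the members most closely over the 9 libraries, by Pearson correlation of log2 CPM with the members' mean, among 10569 genes with a mean of at least 10 CPM, were Lrrc28 (r = 0.986), the Hippo-pathway kinase gene Lats2 (0.976), Gclc (0.969), which encodes the catalytic subunit for glutathione synthesis, the splicing-factor gene Hnrnpr (0.968) and Hspa4 (0.964), a heat-shock protein gene of the HSP110 family. The 9 points share library depth and scaling, and the groups differ in level, so no p-value is given. The 3 groups, in the order WT, the libraries labelled Gm1142-/- and double knockout, measured 149, 143 and 139.6, then 180.0, 211 and 192, then 164, 188 and 171 CPM for Hspa4. Gclc measured 44.2, 44.5 and 39.8, then 58.8, 76.96 and 70.9, then 50.3, 59.6 and 52.5 CPM. In both genes the double-knockout libraries lay above all WT libraries, as in 8.28% of all tested genes, while in Lats2 these groups overlapped. The genes were chosen for following the members' mean, in which the double-knockout libraries also lay above WT, so this adds no separate result.

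The 10 genes called higher in the libraries labelled Gm1142-/- had a median transcript of 1464 bases (766 to 2597) with 51.3% GC, and the other 36 tested members had one of 1510.5 bases (555 to 6491) with 49.4% GC.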
